A study of Mus musculus with 12 samples.

Results

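Formative and primed epiblast markers were followed in RNA-Seq data of mouse epiblast-like cells (EpiLCs) with and without functional Kdm5c, an X-linked gene for a histone demethylase that the sample labels call by its older name Smcx. The 8 genes were chosen by name, with earlier results of these data known. They are Fgf5, Otx2, Pou3f1, Zic2, Zic5, Sall2, Foxd3 and Tcf15, and all 8 were among the 22911 genes listed for both sexes. Each of 4 groups had 3 libraries, and all were made from embryonic stem cells (ESCs) that had spent 48 h in 10 ng/ml FGF2 and 20 ng/ml Activin A on fibronectin. The groups were female control (Kdm5c fl/fl), female mutant (Kdm5c Δ/Δ), male control (Kdm5c flY) and male mutant (Kdm5c ΔY) cells. The control cells carried loxP-flanked Kdm5c and are labelled wild type. The Δ allele lacks exons 11 and 12. Per the methods of the study, the 3 libraries of a genotype come from independent ESC lines. These were first grown on fibroblast feeders, then for 4 passages on gelatin-coated dishes with LIF and inhibitors of GSK3 and MEK. The methods also say that the floxed strain was made on a mixed background, whereas the labels name C57BL/6J as the strain.

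When naive ESCs leave the ground state, they pass through a formative state, which EpiLCs model and which resembles the epiblast just after implantation. FGF and Activin signalling drive this step. Otx2 and Pou3f1 encode transcription factors that redirect the pluripotency network to new enhancers, Fgf5 encodes a secreted growth factor that is the classic mark of the early post-implantation epiblast, and Foxd3, Zic2, Zic5, Sall2 and Tcf15 encode further transcription factors known from the exit from naive pluripotency.

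In mm9 with the GENCODE M1 annotation, Fgf5 lies at chr5:98683203-98706049 on the + strand, Pou3f1 at chr4:124334896-124337899 on the + strand, Foxd3 at chr4:99322990-99325362 on the + strand and Tcf15 at chr2:151969297-151974833 on the + strand. The other 4 genes lie on chromosome 14, with Otx2 at chr14:49277354-49287319 and Sall2 at chr14:52930847-52948437, both on the - strand. Zic5 at chr14:122856017-122864899 on the - strand and Zic2 at chr14:122874604-122879074 on the + strand are divergent neighbours with 9704 bp between them. Pou3f1 and Foxd3 each have a single exon. A pseudogene entry with the symbol Pou3f1 covers 3003 of its 3004 exonic bases, and a microRNA entry covers 89 of the 2373 exonic bases of Foxd3, so the reads counted for these 2 genes could depend on how overlapping entries were treated.

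Upstream sequences are printed for Foxd3, which changed most in females, and for Otx2 and Fgf5, whose change differed between the sexes. Each run is the 250 bases before an annotated RefSeq start site in GRCm38.p6, read 5′ to 3′ on the strand of the gene, at chr4:99656049-99656298 for Foxd3, chr5:98253934-98254183 for Fgf5 and chr14:48667645-48667894 for the most upstream of the 4 starts of Otx2.

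Foxd3: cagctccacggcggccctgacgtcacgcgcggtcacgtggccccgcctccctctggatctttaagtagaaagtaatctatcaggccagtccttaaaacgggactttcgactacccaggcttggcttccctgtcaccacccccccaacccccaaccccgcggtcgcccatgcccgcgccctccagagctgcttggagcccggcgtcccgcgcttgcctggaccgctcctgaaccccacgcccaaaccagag

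Fgf5: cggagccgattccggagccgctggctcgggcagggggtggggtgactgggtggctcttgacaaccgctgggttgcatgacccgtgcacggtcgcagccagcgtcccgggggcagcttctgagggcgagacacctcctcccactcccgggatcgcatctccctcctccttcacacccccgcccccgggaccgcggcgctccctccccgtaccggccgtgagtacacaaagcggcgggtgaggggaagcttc

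Otx2: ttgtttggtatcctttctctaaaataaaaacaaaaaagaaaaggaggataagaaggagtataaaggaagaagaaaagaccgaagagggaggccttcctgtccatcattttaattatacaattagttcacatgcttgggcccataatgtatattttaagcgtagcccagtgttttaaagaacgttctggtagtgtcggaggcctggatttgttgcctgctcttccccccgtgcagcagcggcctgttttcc

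The G and C content was 65.6% for Foxd3 and 70.8% for Fgf5 but 42.0% for Otx2, against a median of 52.4% over 32851 promoters of the same length. The CG dinucleotide occurred 21 times for Foxd3, 24 times for Fgf5 and 6 times for Otx2, with a median of 6 over all promoters. None of the 3 runs holds the bicoid-type motif TAATCC, the octamer ATGCAAAT or the ZIC-type motif CAGCAGG on either strand, so no letters are in capitals. Over 9 promoters of the 5 genes with an entry (Fgf5, Otx2, Zic5, Sall2 and Foxd3), the only match was TAATCC upstream of another start of Otx2. It lies on the strand opposite to the gene and reads GGATTA, with its first base at -211, on the strand of the gene. Of all promoters, 6.25% hold TAATCC, 1.60% the octamer and 8.44% CAGCAGG.

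Levels are given as normalized counts, that is, reads of a gene scaled by a library-wise size factor. Only group means were deposited by the authors, and single libraries were solved from them. Libraries A, B and C of a group are named in falling order of size factor, and which ESC line each came from is not known. They hold 5516216 to 11092731 recovered reads each. Kdm5c itself had 2336, 2429 and 2315 normalized counts in the female control and 1406, 1447 and 1505 in the female mutant libraries, and 2195, 2110 and 2371 in the male control and 1897, 1943 and 1976 in the male mutant libraries. Kdm5c was lower in the female mutant (ratio 0.616, adjusted p = 4.70e-09, limma) and did not pass the test in males (ratio 0.871, adjusted p = 0.274). These counts run over all exons, and reads on exons 11 and 12 alone were not analysed here.

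The libraries of the male groups were not alike. Over genes with at least 20 reads in a pair of libraries, 12.9 to 20.9% differed beyond a chi-square of 3.84 within the female groups, where counting error alone gives 5%. Male control libraries A and C differed at 11.9% of the genes and male mutant libraries B and C at 15.8%, but male control library B differed from A and C at 48.7 and 47.1%, and male mutant library A from B and C at 57.4 and 55.1%. Male control libraries A and C also had reads on 20805 and 20400 genes, against 17191 to 17783 in the other libraries. Where genes are silent elsewhere, the median in those 2 libraries came to at most 4.24 normalized counts over the exonic length of any of the 8 genes. Results of the 8 genes in males are therefore given with and without male control library B and male mutant library A. Male results of the other gene lists are given with every library only.

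The plot of normalized counts by library shows that the mean of Foxd3 and of Tcf15 was highest in the female mutant, while the mean of each of the other 6 genes was highest in a control group.

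**Figure D1:**
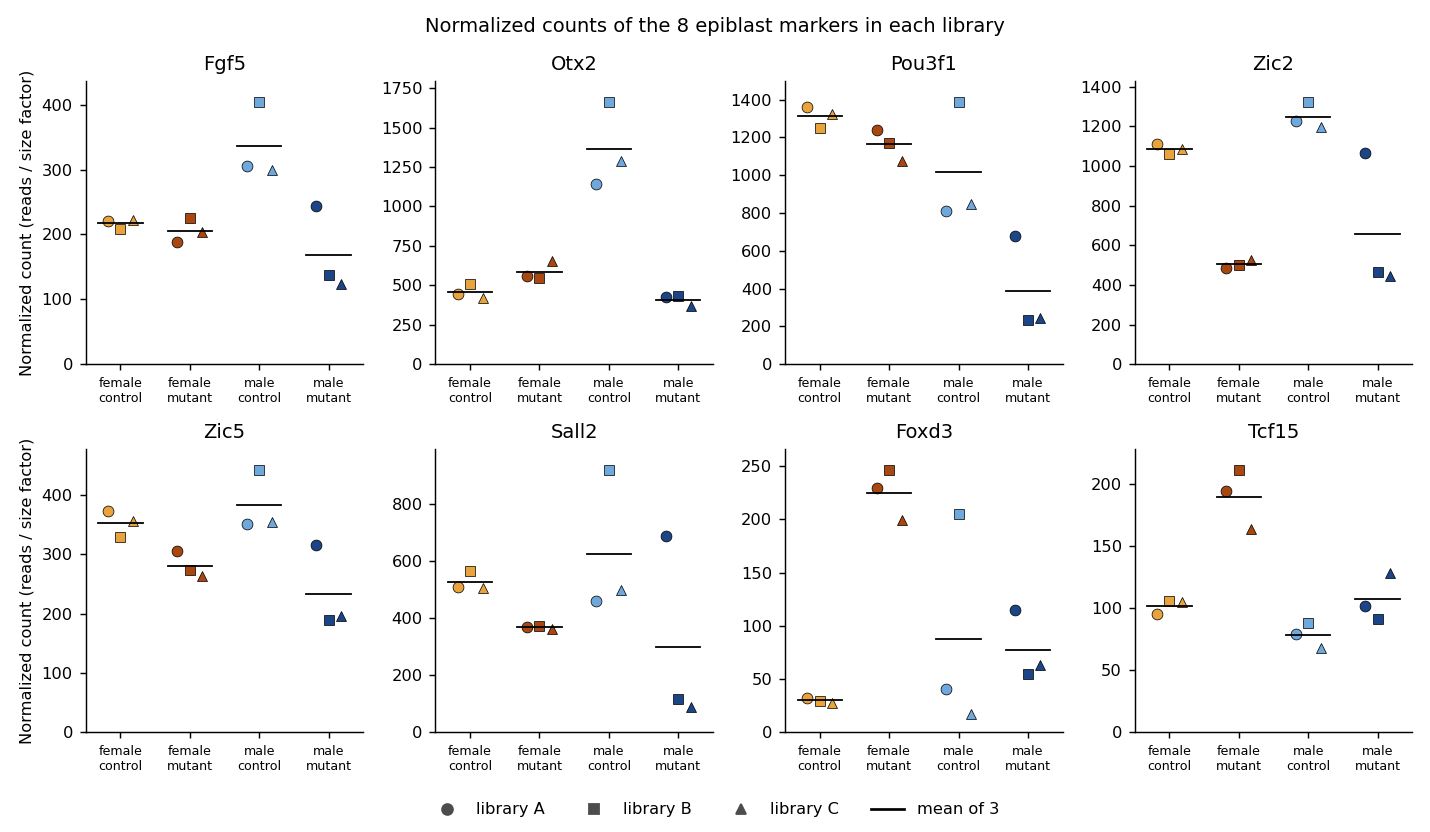
Normalized counts (vertical axis, linear and from 0) of the 8 genes in each library of the 4 groups (horizontal axis), with circles, squares and triangles for libraries A, B and C and a bar for the mean of 3. Foxd3 stood at 199 to 247 in the female mutant and 27.8 to 32.2 in the female control libraries, and Otx2 at 1139.6 to 1662 in the male control libraries and 368 to 655 in all others.

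Compared per kilobase of exon, so that genes of different length can be ranked, Pou3f1 was the most abundant in female control cells at 436 ± 19.4 normalized counts per kb (SD, n = 3), above 91.5% of the 16874 genes with a read and a known length. Zic2 followed at 259 ± 6.34, Otx2 at 135 ± 12.6, Tcf15 at 104 ± 5.55, Sall2 at 97.0 ± 5.96, Fgf5 at 86.8 ± 2.96, Zic5 at 72.2 ± 4.53 and Foxd3 at 12.6 ± 0.930. Only Tcf15 and Sall2 overlapped among neighbours in this order. In female mutant cells Pou3f1 still led at 387 ± 27.5 per kb, and Tcf15 at 194 ± 24.6 and Otx2 at 173 ± 17.3, which overlapped, came next. Foxd3 moved from the last to the fifth place at 94.9 ± 10.2 per kb, a level that overlapped that of Fgf5 at 82.3 ± 7.20.

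The order differed in males. In male control cells Otx2 was first at 401 ± 79.4 normalized counts per kb, followed by Pou3f1 at 338 ± 107 and Zic2 at 298 ± 15.9, and the libraries of Pou3f1 overlapped those of both Otx2 and Zic2. Fgf5 at 135 ± 23.5, Sall2 at 115 ± 47.0, Tcf15 at 79.7 ± 10.4, Zic5 at 78.4 ± 10.5 and Foxd3 at 36.9 ± 43.0 per kb each overlapped the next. In male mutant cells every neighbour overlapped, from Zic2 at 157 ± 84.3 to Foxd3 at 32.7 ± 13.8 per kb.

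The first comparison asked how the RNA levels of the 8 genes differ between female mutant and female control EpiLCs. Of the 8 genes, 7 passed the test, with 3 higher (Foxd3, Tcf15 and Otx2) and 4 lower (Zic2, Sall2, Zic5 and Pou3f1) in the mutant, and Fgf5 did not. The test was limma on log2(normalized count + 1) with Benjamini-Hochberg adjustment over 19583 genes and a threshold of 0.05. With the same test, 50.0% of all genes passed, 25.4% higher and 24.6% lower, so a call in females is common among all genes and not particular to the 8. The libraries of the 2 groups did not overlap for 7 of the 8 genes, against 54.8% of all genes tested. For such genes the exact permutation test, two-sided, gave p = 0.10, the smallest that 3 libraries against 3 allow.

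Foxd3, a forkhead repressor and activator that acts in early pluripotent cells, changed most. Its normalized counts were 32.2, 29.6 and 27.8 in the female control and 229.6, 247 and 199 in the female mutant libraries. Every mutant library was several times above every control library. The ratio of the means was 7.53, and the difference on the log2 scale was 2.87 (standard error 0.142, adjusted p = 1.34e-11, limma). Tcf15, a basic helix-loop-helix factor that primes cells for differentiation, had 95.6, 105 and 104 normalized counts in the female control and 194, 211 and 164 in the female mutant libraries. All mutant libraries were higher, with a ratio of 1.86 and a log2 difference of 0.89 (standard error 0.115, adjusted p = 3.86e-06, limma).

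Otx2, a homeobox factor of the formative network, had 448, 506 and 422 normalized counts in the female control and 562, 546 and 655 in the female mutant libraries. The mutant libraries were all higher, by a smaller step, with a ratio of 1.28 and a log2 difference of 0.36 (standard error 0.081, adjusted p = 0.00127, limma). Pou3f1, the POU factor also called Oct6, had 1361, 1247 and 1325 normalized counts in the female control and 1240.5, 1172 and 1076 in the female mutant libraries. The lowest control and the highest mutant library nearly touched, and the ratio was 0.887, with a log2 difference of -0.17 (standard error 0.062, adjusted p = 0.0268, limma). Leaving out female control library A or C, or female mutant library B or C, ended this call, with adjusted p of up to 0.146 in limma.

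The 3 zinc finger genes were all lower in the female mutant. Zic2 showed the largest fall, from 1113, 1059.5 and 1084 normalized counts in the control to 487, 502 and 528 in the mutant libraries. The ratio was 0.466, and the log2 difference was -1.10 (standard error 0.060, adjusted p = 4.51e-11, limma). Its neighbour Zic5 had 373, 329 and 357 normalized counts in the control and 306, 274 and 263 in the mutant libraries. The fall of Zic5 was the smaller one, with a ratio of 0.795 and a log2 difference of -0.33 (standard error 0.082, adjusted p = 0.00232, limma). Per kilobase, Zic2 stood 3.48, 3.76 and 3.55 times above Zic5 in the control libraries and 1.86, 2.14 and 2.34 times above it in the mutant libraries, so the ratio of the 2 neighbours also did not overlap between the groups. Sall2, a spalt-like factor, had 511, 564 and 506 normalized counts in the control and 369, 372 and 364 in the mutant libraries. All mutant libraries were lower, with a ratio of 0.699 and a log2 difference of -0.51 (standard error 0.069, adjusted p = 5.04e-06, limma).

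Fgf5, the ligand of the group, had 220.3, 209 and 222 normalized counts in the female control and 189, 225 and 204 in the female mutant libraries. The groups overlapped, and the log2 difference was -0.08 with a 95% interval of -0.27 to 0.11 (adjusted p = 0.518, limma). When 1 spread per gene was estimated over all 12 libraries, including the uneven male groups, Foxd3, Zic2 and Tcf15 were the 3 genes that still passed in females, with unchanged differences, while 29.5% of all genes passed in that fit against 50.0% in the fit within females.

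Markers of other cell types moved with these results. All 10 endoderm markers (among them Gata4, Gata6, Sox17 and Dab2) were higher in the female mutant, and their summed level was 470 to 524 normalized counts in the control and 3773 to 3953.5 in the mutant libraries. The summed level of 10 fibroblast markers was 2513 to 2568 in the control and 1043 to 1092 in the mutant libraries. Of the 10, 4 were lower (Col1a1, Col1a2, Postn and Pdgfrb) and 1 was higher (Fbn1). Col1a1 (1290 and 281 normalized counts in control and mutant) and Col1a2 (760 and 337) made up most of the sums. Of 7 neural markers, Sox1 (209 and 24.8 normalized counts, log2 difference -3.08) and Nes (2208 and 1717, -0.36) were lower and Tubb3 (264 and 418, 0.66) was higher in the female mutant. Neurog2 passed as higher too, but near the floor, from 0 reads in every control library to a mean of 2.09 normalized counts in the mutant. The list summed to 2586 to 2819 in the control and 2165 to 2201 in the mutant libraries. Of 6 primitive streak and mesoderm markers, T (96.7 and 11.4, -3.09) and Evx1 (5.76 and 1.70, -1.33) were lower and Mixl1 (13.5 and 33.2, 1.25) was higher, and the list summed to 279 to 319 and 231 to 257. Of 6 trophoblast markers, Tfap2c and Hand1 were higher and Gata3 was lower, with sums of 327 to 370.2 and 459 to 473. The part of these cells in the changes of the 8 genes was not tested, and in bulk RNA fewer cells of a type and less RNA per cell cannot be told apart.

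The second comparison asked the same of male mutant and male control EpiLCs. Of the 8 genes, 3 passed the test, all lower in the mutant (Otx2, Pou3f1 and Fgf5), and the other 5 did not, with estimates below 0 for Zic2, Zic5 and Sall2 and above 0 for Foxd3 and Tcf15. In the same fit 7.78% of 21900 genes passed, 4.19% higher and 3.58% lower. When only genes with a mean of at least 10 normalized counts over the male libraries were fitted, 1753 of 14304 passed, a larger share. The libraries did not overlap for 6 of the 8 genes, against 26.5% of all genes tested. The median log2 difference over the 8 genes was -1.05, beside -0.16 over all genes tested and 0.00 over the 14132 genes with a mean of at least 10 normalized counts.

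Otx2 had 1139.6, 1662 and 1286 normalized counts in the male control and 425, 429.8 and 368 in the male mutant libraries. Unlike most of the other genes, its mutant libraries A, B and C lay close together, and each was far below every control library. The ratio was 0.299, and the log2 difference was -1.72 (standard error 0.154, adjusted p = 5.18e-04, limma). Otx2 passed without any single library in turn, with adjusted p of at most 0.0121 in limma.

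Pou3f1 had 812, 1387 and 846 normalized counts in the male control and 679, 233 and 246 in the male mutant libraries. Mutant libraries B and C were far below the controls, while library A was near them. The ratio was 0.380, and the log2 difference was -1.53 (standard error 0.376, adjusted p = 0.0386, limma). Fgf5 had 306, 404 and 299 normalized counts in the male control and 243, 137 and 124 in the male mutant libraries. Mutant library A was again the one nearest to the controls, with a ratio of 0.4998 and a log2 difference of -1.05 (standard error 0.251, adjusted p = 0.0360, limma). Both calls were lost without any 1 of male control libraries A, B and C or male mutant libraries B and C, with adjusted p in limma of up to 0.137 for Pou3f1 and 0.130 for Fgf5, and were kept without male mutant library A.

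Zic2 had 1224, 1322 and 1196 normalized counts in the male control and 1065, 465 and 443 in the male mutant libraries. Mutant library A lay close to the controls, and B and C were far below it. The log2 difference was -1.05 (standard error 0.285, adjusted p = 0.0552, limma), which missed the threshold. Zic5 had 352, 442.5 and 355 normalized counts in the male control and 316, 189.5 and 195 in the male mutant libraries, with a log2 difference of -0.74 (standard error 0.208, adjusted p = 0.0597, limma). Sall2 was the least even, at 459.6, 921 and 500.1 normalized counts in the male control and 688, 118 and 89.0 in the male mutant libraries. Its mutant library A lay above 2 of the 3 controls, so the groups overlapped and the log2 difference of -1.62 (standard error 0.639, adjusted p = 0.158, limma) did not pass.

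Foxd3 had 40.9, 205 and 17.2 normalized counts in the male control and 115, 54.7 and 63.1 in the male mutant libraries. Control library B stood far above A and C, and the groups overlapped. The log2 difference was 0.47 with a 95% interval of -1.16 to 2.097 (adjusted p = 0.690, limma), and its sign turned, to -0.32, without control library C. Tcf15 had 78.8, 87.9 and 67.5 normalized counts in the male control and 101, 91.2 and 128 in the male mutant libraries. All mutant libraries were higher by a small step, and the log2 difference of 0.44 (standard error 0.218, adjusted p = 0.241, limma) did not pass.

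Without male control library B and male mutant library A, 6 of the 8 genes passed and all 6 were lower in the mutant. The log2 differences were then -1.60 for Otx2, -1.79 for Pou3f1, -1.21 for Fgf5, -1.41 for Zic2, -0.87 for Zic5 and -2.22 for Sall2, with adjusted p from 2.91e-05 to 4.93e-04 in limma. Foxd3 at 1.11 and Tcf15 at 0.56 did not pass (adjusted p = 0.0600 and 0.0627, limma). This fit called 9377 genes or 43.0% in all, against 1703 or 7.78% with every library, so the calls of the 6 genes stand in a larger background. It compared male mutant libraries B and C with male control libraries A and C. The libraries left out were those that differed most from their own groups, so the spread is narrower by that choice. The adjusted p-values of this fit therefore cannot be set beside those with every library.

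**Figure D2:**
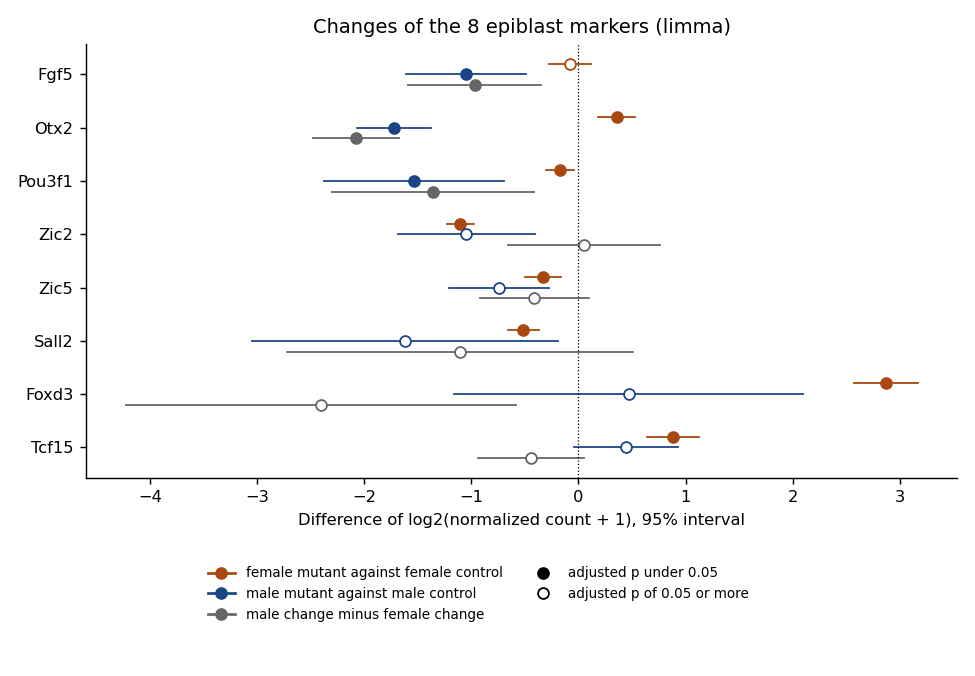
Differences of log2(normalized count + 1) with 95% intervals (horizontal axis) for the 8 genes (vertical axis), in females (brown), in males (blue) and as the male minus the female difference (grey), with filled points for an adjusted p under 0.05 in limma. The female intervals are the narrow ones, Otx2 lies at 0.36 in females and -1.72 in males, and Foxd3 lies at 2.87 in females and 0.47 in males.

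Markers of other cell types differed between the male libraries as well. The summed level of 6 trophoblast markers, of which 5 were higher in the mutant (Cdx2, Tfap2c, Gata3, Krt7 and Hand1), was 212 to 359 normalized counts in the male control and 1363, 3031 and 2745 in male mutant libraries A, B and C. The summed level of 10 fibroblast markers was 805 to 1029 in the male control and 4589 to 5045 in the male mutant libraries. Of the 10, 5 were higher (Col1a1, Col1a2, Col3a1, Postn and Pdgfrb), and the 5 that did not pass had estimates on both sides of 0. Col1a1 (225 and 2332 normalized counts in control and mutant) and Col1a2 (284 and 1642) made up most of the sums. Endoderm markers summed to 1831 to 2659 in the male control libraries and to 595, 3131 and 3055 in male mutant libraries A, B and C. Of the 10, 1 (Sox17) passed the test, lower in the mutant. The others went both ways, with log2 differences of -1.47 for Gata6 and -1.54 for Sox7 but 0.19 for Dab2 and 2.87 for Apoa1. The median of the list was -0.05, so the sum does not speak for its members. Neural markers, of which Tubb3 passed as higher in the mutant, summed to 1273 to 1455 in the male control and to 2353, 1076 and 1078 in male mutant libraries A, B and C. The primitive streak and mesoderm markers summed to 213 to 241 and to 134, 286 and 282. Male mutant library A held the most RNA of the 8 epiblast markers, 3633 normalized counts against 1718 and 1657, and the least of the endoderm and trophoblast markers. The part of these cells in the results was not tested.

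**Figure D3:**
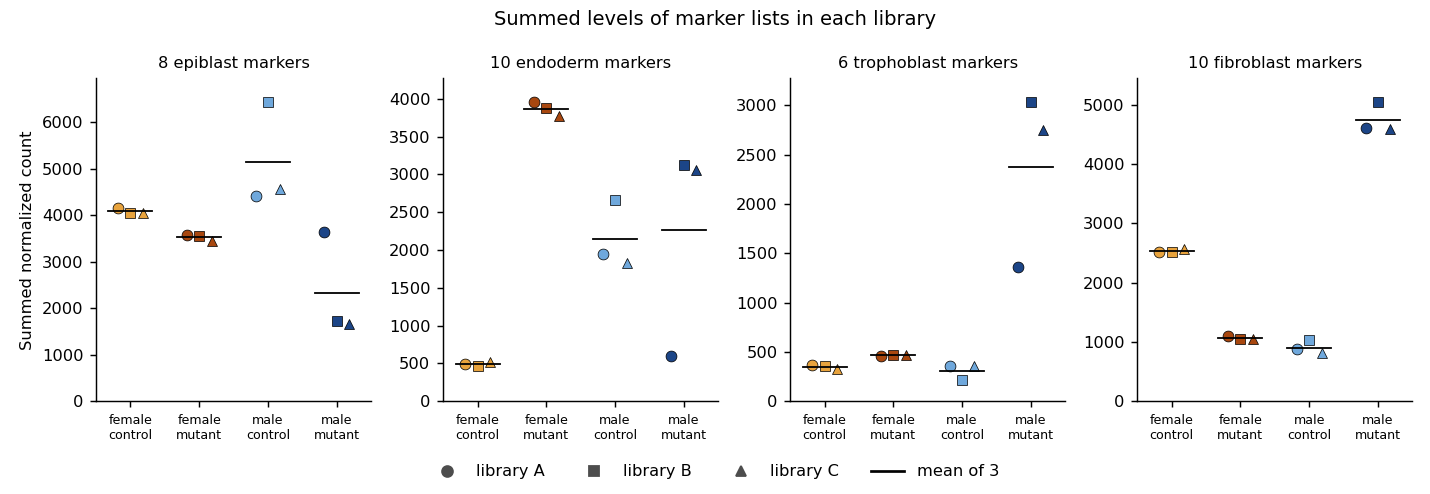
Summed normalized counts (vertical axis, linear and from 0) of the 8 epiblast markers and of 3 lists of markers of other cell types in each library of the 4 groups (horizontal axis), with a bar for the mean of 3. Male mutant library A (circle) stands at 3633 for the epiblast markers and 595 for the endoderm markers, while libraries B and C stand at 1718 and 1657 and at 3131 and 3055.

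The question of whether males and females changed differently was put to an interaction term of sex and genotype in 1 limma fit over all 12 libraries. In it 21.2% of 22014 genes passed, and with a minimum mean of 10 normalized counts 4783 of 14132 passed, a larger share. Of the 8 genes, 3 passed, and in each the male change was the lower one. The male minus the female log2 difference was -2.08 for Otx2 (standard error 0.187, adjusted p = 6.67e-06, limma), whose directions were opposite. It was -0.97 for Fgf5 (standard error 0.289, adjusted p = 0.0279, limma) and -1.36 for Pou3f1 (standard error 0.440, adjusted p = 0.0413, limma). The values for Foxd3 and Sall2 were -2.40 and -1.10 with wide intervals of -4.23 to -0.58 and -2.72 to 0.51, and neither passed (adjusted p = 0.0593 and 0.316, limma). The difference was -0.41 for Zic5, -0.44 for Tcf15 and 0.06 for Zic2, with adjusted p of 0.238, 0.196 and 0.920 in limma.

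Otx2 passed this test without any single library. The call of Fgf5 was lost without female control libraries A, B or C, female mutant libraries B or C, male control library B or male mutant libraries B or C, and that of Pou3f1 was lost without any single library other than male control library A and male mutant library A. Without male control library B and male mutant library A, 7 of the 8 genes passed, Tcf15 being the exception, and the value of Zic2 turned to -0.31 (adjusted p = 0.00646, limma). In that fit 45.6% of all genes passed, against 21.2% with every library, and the spread is narrower by the same choice of libraries.

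The control cells of the sexes were compared in the same fit, where 21.5% of 22014 genes passed and 11.8% were lower in females. With a minimum mean of 10 normalized counts, 4438 of 14132 genes passed, a larger share. The size factors of the 2 deposited tables were 0.988 to 0.999 of factors computed over all 12 libraries together, so the tables nearly share a scale. Of the 8 genes, Otx2 and Fgf5 passed, both lower in female than in male control cells. Otx2 was at 458.8 ± 42.9 normalized counts in the female and 1363 ± 269.7 in the male control (SD, n = 3), a log2 difference of -1.55 (standard error 0.132, adjusted p = 4.04e-06, limma). Fgf5 was at 217 ± 7.41 and 336 ± 58.8, a log2 difference of -0.62 (standard error 0.204, adjusted p = 0.0460, limma), and lost the call without female control library A, B or C, any female mutant library, or any male control library. The 2 mutant groups had closer levels of Otx2, at 588 ± 58.7 in female and 408 ± 34.3 in male cells, which still did not overlap.

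The interaction and the comparisons within each sex share the same libraries, so a low female control level and a female rise of Otx2 are not independent values. Per kilobase, Otx2 stood at 0.282 to 0.359 of the level of Pou3f1 in female control, 0.401 to 0.538 in female mutant and 1.06 to 1.34 in male control libraries. In male mutant libraries A, B and C this ratio was 0.554, 1.63 and 1.32, so library A stood apart here as well.

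**Figure D4:**
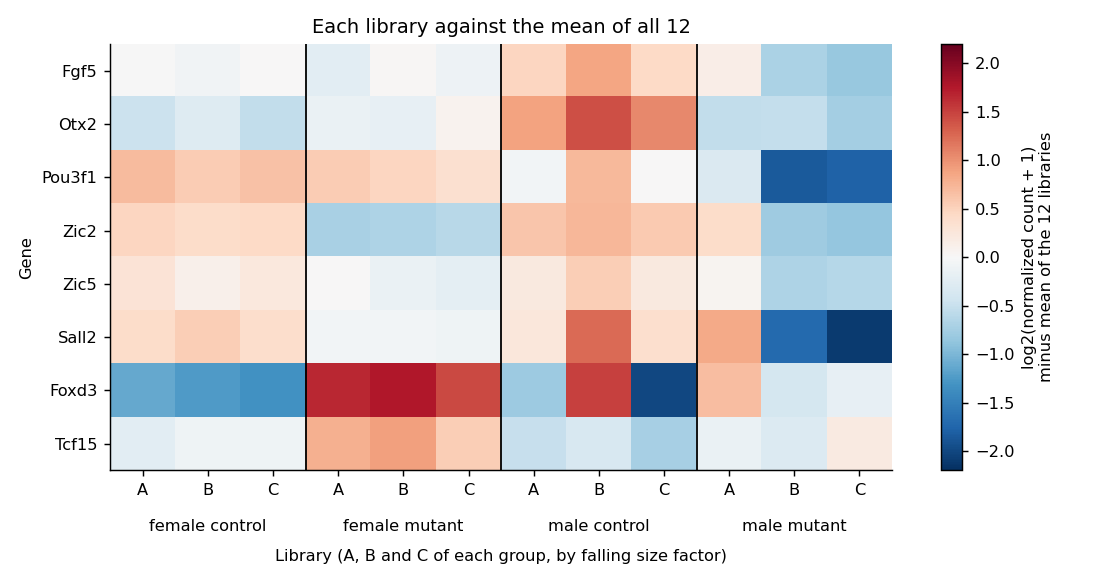
Colour map of log2(normalized count + 1) of the 8 genes (rows) in the 12 libraries (columns, in 4 groups), as the difference from the gene's mean over the 12 libraries, red above and blue below it. The female columns are alike within a group, male mutant columns B and C are the lowest for Pou3f1 and Sall2, and male control column B is high for Foxd3 at 205 normalized counts while columns A and C are at 40.9 and 17.2.

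How alike the 8 genes were among themselves was measured over the 12 libraries as the root mean square difference of 2 genes' log2 values, after each was centred on its own mean, which is a description and shares depth and library between the genes. Fgf5 and Zic5 were the closest pair at 0.21, followed by Zic2 and Zic5 at 0.37, Fgf5 and Zic2 at 0.38 and Fgf5 and Otx2 at 0.41. Pou3f1 and Sall2 were 0.50 apart. Foxd3 was 0.999 from Tcf15, the nearest of the other 7, and 1.69 from Zic2, the farthest.

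Over all 11217 genes with a mean of at least 50 normalized counts, the gene closest to Fgf5 was Lyplal1 at 0.14, to Pou3f1 Pim2 at 0.21, to Sall2 Vrtn at 0.22, to Zic2 Fam134a at 0.14, to Zic5 Col18a1 at 0.11 and to Tcf15 Wdr1 at 0.14. Otx2 and Foxd3 had no such close match, with Gm5796 at 0.28 and D1Pas1 at 0.50. The members' own root mean square deviations ranged from 0.35 for Zic5 to 1.296 for Foxd3, which sets the scale of these distances.

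Other genes of this transition were taken from lists written from general knowledge, with earlier results of these data known. Their values below are means of 3 libraries. Of 25 other formative and primed epiblast genes, 12 were higher and 10 lower in the female mutant, with a median log2 difference of 0.02 beside -0.13 for the 8 genes and 0.00 for all genes. Among the higher ones were the DNA methyltransferase genes Dnmt3a (2130 and 6446 normalized counts in control and mutant, log2 difference 1.60) and Dnmt3b (3392 and 6050, 0.83). The ETS factor Etv4 (297.5 and 860.3, 1.53) and Mycn (367 and 1309, 1.83) were higher too. Among the lower ones were the growth factor gene Fgf8 (249 and 26.2, -3.20) and the SOX factors Sox11 (1866 and 695, -1.42) and Sox3 (351 and 157, -1.14). In males 2 of the 25 were higher (Sall4 and Epha4) and 3 lower, Utf1 and Etv5 among them, with a median of 0.06. Utf1, a chromatin protein of pluripotent cells, went from 3757 to 2094 normalized counts in males (log2 difference -0.85) and from 2548 to 3459 in females (0.44), and its interaction of -1.29 passed the test, as did those of 9 others of the 25.

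Naive pluripotency genes, which cells switch off on the way to the formative state, were higher more often than lower in both mutants. Of 15 such genes, 11 were higher and 2 (Nanog and Fgf4) lower in the female mutant, with a median log2 difference of 1.20, and 6 were higher and 0 lower in the male mutant, with a median of 1.58. Esrrb went from 237 to 981 normalized counts in females and from 401 to 1564 in males (log2 difference 2.05 and 2.03), and Klf2 from 74.3 to 249 and from 98.8 to 418 (1.76 and 2.21). Tbx3 was higher in both mutants as well, with log2 differences of 2.57 and 1.76. These genes passed in limma in both sexes.

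Of the core pluripotency genes, Pou5f1 was slightly lower in the female mutant (3602 and 3134 normalized counts, log2 difference -0.20) and Sox2 was higher (351 and 1820, 2.37), and neither passed in males. Among 11 paralogs of the 8 genes, 4 of which also stand in the other lists, Sall1 was higher in the female mutant (576 and 1335, log2 difference 1.21) while its paralog Sall2 was lower. In males Sall1 stood at 1303 in the control and 564 in the mutant (log2 difference -1.43, adjusted p = 0.0628, limma), and its interaction of -2.65 passed.

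**Figure D5:**
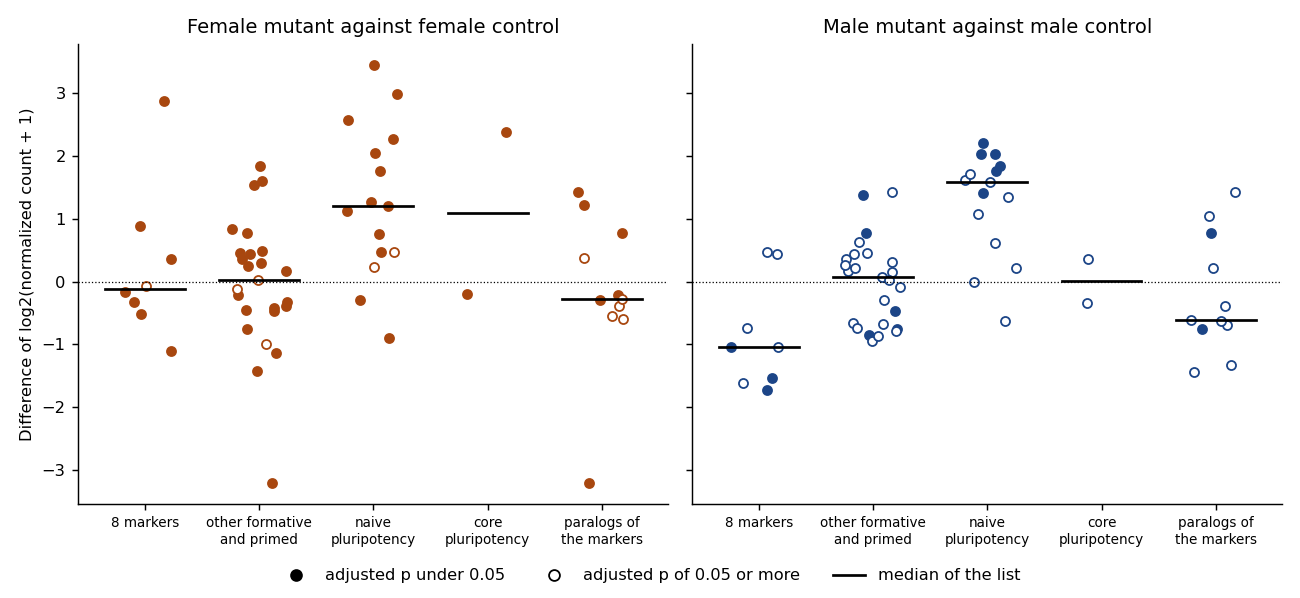
Differences of log2(normalized count + 1) between mutant and control (vertical axis) for the genes of 5 lists (horizontal axis) in females (left) and males (right), with filled points for an adjusted p under 0.05 in limma and a bar for the median of the list. The median of the 8 genes lies at -0.13 in females and -1.05 in males, and that of the naive pluripotency genes at 1.20 and 1.58.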

How the data were processed

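RNA-Seq of EpiLCs covered 12 libraries, 3 for each of 4 genotypes. According to the methods of the study, ribosomal RNA was depleted, single-end reads of 50 bp were mapped to mm9 with TopHat2 2.1.0 (Bowtie2 2.2.6.0), up to 1 mismatch was allowed and uniquely mapped reads were kept. The counting tool, gene annotation and strand setting for these libraries are not given in the sources used here.

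The signal values that the authors deposited are group means of normalized counts for 22911 genes, 1 table per sex, with reads divided by a size factor per library. The authors' fold changes and p-values in the same tables were not used. Each mean was solved for the 3 whole read numbers behind it, up to a mean of 10000. Every gene searched had 1 solution. Between 99.7 and 99.8% of the genes, which carry 86.0 to 91.4% of the normalized reads, were solved, and the solver was tested on simulated data. Depth was 5516216 to 11092731 recovered reads per library, and precision from depth covers counting error only.

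Limma 3.58.1 in R 4.3.3 was fitted with an intensity trend to log2(normalized count + 1), within each sex and, for the interaction and the control sexes, over all 12 libraries. Benjamini-Hochberg adjustment ran over all genes tested, with a threshold of 0.05. P-values rest on the spread between these libraries. Single genes were compared with exact two-sided permutation tests. Alternatives were a pseudocount of 0.1, a minimum mean of 10, voom, upper-quartile factors, 1 fit for all libraries, and fits without single or unusual libraries. Levels per kb use GENCODE M1 exons.

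The text names all 8 genes and, from the lists, genes past the threshold or among the most abundant. For each of the 8 genes, the closest gene in pattern was also named. The genes, lists and alternatives were chosen with earlier results of these data known. Promoters were from RefSeq on GRCm38.p6. Python 3.11.15, numpy 2.4.6, pandas 2.3.3, numba 0.67.0, matplotlib 3.10.9 and scipy 1.17.1 were used.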

Additional observations from a re-analysis of the deposited data

Results flagged for a closer look

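The change between mutant and control differed between the sexes for 3 of the 8 genes by the interaction of sex and genotype in limma. Benjamini-Hochberg adjustment ran over 22014 genes, of which 21.2% passed. With a minimum mean of 10 normalized counts, 4783 of 14132 genes passed, a larger share. The male minus the female log2 difference was -2.08 for Otx2 (adjusted p = 6.67e-06), with all 3 female mutant libraries above and all 3 male mutant libraries below their controls. It was -1.36 for Pou3f1 (adjusted p = 0.0413) and -0.97 for Fgf5 (adjusted p = 0.0279), where the change in females was -0.17 and -0.08 and that in males -1.53 and -1.05. In each of these genes male mutant library A was the highest or within the range of the other male mutant libraries, and without it the values were -2.11, -1.86 and -1.27. Leaving out 1 library at a time, Otx2 passed in all 12 fits, but Pou3f1 lost its call in 10 of 12 (smallest value -1.09, adjusted p up to 0.102, limma) and Fgf5 in 8 of 12 (smallest value -0.79, adjusted p up to 0.0711, limma).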

How the results depend on the processing

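No paired analysis was possible because the recovered libraries carry no replicate numbers. With 1 fit over all 12 libraries, 3 of the 8 genes and 6493 genes in all passed in females and 6 and 4766 in males. Without male control library B and male mutant library A, 6 and 9377 passed in males, 7 and 10014 in the interaction, and 5 and 10724 between the control sexes. Leaving out male control libraries A and C, an alternative chosen after seeing the data that leaves 1 male control library assumed to vary like the other groups, gave 0 and 0 in males (limma; 3 and 1703 with every library, and 5397 genes at an unadjusted p under 0.05) and 2040 genes between the control sexes. Leaving out 1 library at a time gave 331 to 4684 genes and 1 to 6 of the 8 in males, 3554 to 7334 and 1 to 7 in the interaction, and 2894 to 8318 and 1 to 4 between the control sexes. The male extremes came without male control library C (331) and B (4684) and male mutant library A (6 of the 8). In females, 8810 to 9139 genes and 6 to 7 of the 8 passed when 1 library was left out. The cause of these shifts was not tested. A pseudocount of 0.1, a minimum mean of 10, voom and upper-quartile scaling kept 7, 3 and 2 of the 8 in females, in males and between the control sexes, and 3 in the interaction (4 with voom). With the minimum mean, 9163 of 13915 genes passed in females and 1753 of 14304 in males. In the interaction 4783 of 14132 passed, and 4438 of 14132 between the control sexes. These shares are larger than in the main fits. Pseudocount 0.1, voom and upper-quartile scaling gave 9555 to 9805 of 19583 genes in females and 1338 to 1662 of 21900 in males. Of 22014 genes they gave 4425 to 4723 in the interaction and 4043 to 4717 between the control sexes.

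Some log2 differences turned sign. In males, Foxd3 ran from -0.32 (without control library C) to 1.43 (without control library B) when 1 library was left out, and went to -1.46 without control libraries A and C. In the interaction, Zic2 ran from -0.35 (without male mutant library A) to 0.28 (without male mutant library C), and went to -0.31 without male control library B and male mutant library A and to -0.030 without male control libraries A and C. Between the control sexes, Sall2 ran from -0.37 (without male control library A) to 0.13 and Foxd3 from -1.59 (without male control library C) to 0.16, both without male control library B, with the same 0.13 and 0.16 when male mutant library A was left out as well. Pou3f1 went to -0.082 without male control libraries A and C. Foxd3 had 41 and 12 reads in male control libraries A and C, the fewest of the 8 genes there, and 198 in library B. In normalized counts library B stood apart as well, at 205 against 40.9 and 17.2 in A and C. The cause of this gap was not tested.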
